A study of Mus musculus with 6 samples.

Results

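The BCL2 family members described here are 10 mouse genes of mitochondrial apoptosis, Bcl2, Bcl2l1, Mcl1, Bcl2a1b, Bcl2a1d, Bak1, Bid, Bcl2l11, Bad and Bmf, taken by symbol from a table of 55401 genes. The genes of the family that are usually counted as direct targets of p53 (Bax, Bbc3 and Pmaip1) were left out of the 10 by that rule and serve here for comparison. RNA came from bone-marrow-derived macrophages, phagocytes grown from mouse marrow for 7 days in medium conditioned by L929 cells. In the L-OHP+FUC group, 3 samples received fucoidan, a sulfated polysaccharide found in brown seaweeds, for 12 h at 250 µg/ml before 12 h with 5 µM L-OHP. In the L-OHP group, 3 samples received 5 µM L-OHP for 12 h and their own treatment label names no fucoidan. L-OHP is the usual abbreviation of oxaliplatin, a platinum drug that damages DNA, and every library came from drug-exposed cells. Untreated cells and cells given fucoidan alone were not analysed here. The labels give neither strain, age nor sex, and they do not say whether replicates were separate cultures or mice, so the spread behind each p-value is that between samples and could be technical.

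The family decides whether the outer mitochondrial membrane stays intact. Prosurvival proteins (BCL2, BCL-XL, MCL1 and A1) hold the pore-forming effectors BAX and BAK in check, and BH3-only proteins such as BIM, BID, BAD and BMF relieve that restraint or activate the effectors, after which cytochrome c is released and caspases are activated. In macrophages, A1 and BCL-XL are known as products of NF-kB target genes, MCL1 as a short-lived protein under continuous turnover, and BIM as a protein whose amount follows growth factor supply and stress. Much of this control acts on the proteins, which were not measured here.

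All levels are FPKM, fragments scaled to transcript length and library size. The FPKM of all genes summed to 317397 to 323171 in L-OHP+FUC libraries and 300602 to 311611 in L-OHP libraries, so small differences between the groups depend on how libraries are scaled. Values of replicates 1 to 3 are given in that order. Pearson's r across the 12084 tested genes, which are not independent replicates, was 0.983 to 0.988 among L-OHP+FUC libraries, 0.968 to 0.981 among L-OHP libraries and 0.950 to 0.965 between the groups. From 9841 to 10188 genes reached 1 FPKM in L-OHP+FUC libraries and 10711 to 10813 in L-OHP libraries. All 8 macrophage markers were detected, with a summed level of 13574 to 14559 FPKM in L-OHP+FUC libraries and 12603 to 17957 FPKM in L-OHP libraries. Lyz2, at 10005 to 15185 FPKM over all libraries, made up most of that sum. The groups did not overlap for 5 of the 8, against 47.0% of all tested genes. Of these, Csf1r (545 to 627 FPKM with L-OHP+FUC, 401 to 448 FPKM with L-OHP) and Cd14 were higher with L-OHP+FUC, against 16.1% of all tested genes. Mertk (29.2 to 30.7 FPKM with L-OHP+FUC, 48.7 to 53.7 FPKM with L-OHP), Fcgr1 and Adgre1 were lower, against 30.9%. The 9 neutrophil markers summed to 5.70 to 6.56 FPKM with L-OHP+FUC and 3.79 to 4.26 FPKM with L-OHP, 7 of the 9 stayed under 0.5 FPKM in every library, and Ly6g and Retnlg were listed at 0 throughout. The 5 stromal markers summed to 6.92 to 7.25 FPKM with L-OHP+FUC and to 4.55, 8.17 and 11.3 FPKM with L-OHP, the highest in L-OHP replicate 3. Mitochondrial transcripts took 8.84%, 9.37% and 9.44% of the summed FPKM with L-OHP+FUC and 7.5%, 5.99% and 9.36% with L-OHP. The part of such transcripts, or of the number of genes detected, in the family's values was not tested.

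Of the 10 members, 1 rose and 1 fell after fucoidan pretreatment. Bak1, the effector that resides on the outer mitochondrial membrane, rose 1.48-fold, and Bcl2l11, which encodes the BH3-only protein BIM, fell to 0.710 of its L-OHP mean. The other 8 did not pass an adjusted p of 0.05 in limma. All 10 passed the filter on low values. For comparison, 27.0% of all tested genes passed the same threshold, 7.67% as higher and 19.3% as lower, and the members' count of 2 in 10 was near that background. The count was 1 higher and 0 lower without L-OHP replicate 1 or 3, and 1 higher and 2 lower without L-OHP replicate 2. It was 0 in both directions when any one L-OHP+FUC library was left out. Calls over all tested genes fell as well, from 927 higher and 2335 lower to 313 and 954 without L-OHP+FUC replicate 1. They were 261 and 854 without L-OHP+FUC replicate 2, and 626 and 2107 without L-OHP+FUC replicate 3. Without L-OHP replicates 1, 2 and 3 they were 338 and 848, 1102 and 2023, and 583 and 1348. The L-OHP+FUC and L-OHP libraries did not overlap for 6 of the 10 members (Bcl2l1, Mcl1, Bak1, Bid, Bcl2l11 and Bmf), against 47.0% of all tested genes. Of the 6, Bcl2l1 and Bak1 were higher with L-OHP+FUC, against 16.1% of all tested genes, and the other 4 were lower, against 30.9%. The median log2 fold change was 0.05 over the members and -0.10 over all tested genes, and without L-OHP replicate 3 it was -0.10 over the members and -0.09 over all. In bulk RNA, fewer cells carrying a transcript and less of it per cell cannot be told apart.

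**Figure D1:**
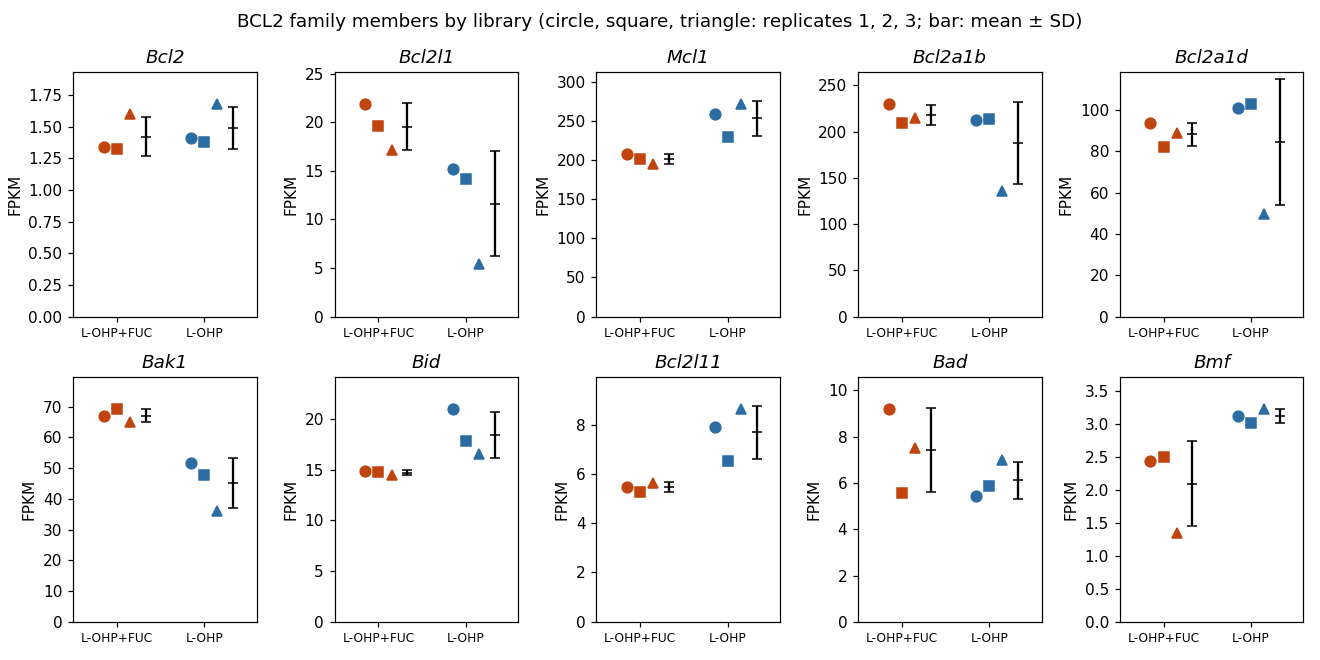
Level of each member in FPKM (vertical axes, each from 0) in the L-OHP+FUC libraries (left, orange) and the L-OHP libraries (right, blue), with replicates as symbols and the mean ± SD as a bar. Bak1 lay at 65.0 to 69.2 FPKM in L-OHP+FUC libraries and at 36.1 to 51.6 FPKM in L-OHP libraries, and L-OHP replicate 3 was the lowest library for Bcl2l1, Bcl2a1b, Bcl2a1d and Bak1.

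Among the prosurvival members, Mcl1 and Bcl2a1b were the most abundant, Bcl2a1d followed, Bcl2l1 was lower and Bcl2 was barely expressed. Mcl1, on chromosome 3 (95658788 to 95663176, mm10), encodes the short-lived survival protein MCL1. It measured 208, 201 and 195 FPKM with L-OHP+FUC, against 259, 229 and 272 FPKM with L-OHP. Every L-OHP+FUC library was below every L-OHP library, but the difference did not pass (log2 fold change -0.33, SE 0.10, 95% interval -0.56 to -0.09, limma adjusted p = 0.0529). Without L-OHP replicate 2 it passed as lower (-0.40, adjusted p = 0.0227), and under quantile normalization too (-0.44, adjusted p = 0.0350). With median ratio rescaling the value was -0.20 (adjusted p = 0.204). The authors' deposited q-value for Mcl1 was 0.387. The FPKM are per gene and do not separate the full-length transcript from the short splice form, which encodes a protein that promotes death.

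Bcl2l1, on chromosome 2 (152780668 to 152831728), encodes BCL-XL, the long prosurvival form, and by splicing the short form BCL-XS, which the gene-level values do not separate. Its level was 21.9, 19.6 and 17.1 FPKM with L-OHP+FUC and 15.2, 14.2 and 5.41 FPKM with L-OHP. The groups did not overlap, and L-OHP replicate 3 stood far below the other two of its group. The log2 fold change of 0.81 (SE 0.35, 95% interval -0.004 to 1.63) did not pass in limma (adjusted p = 0.121). Without L-OHP replicate 3 it was 0.38 with a smaller error (SE 0.13, adjusted p = 0.0848), and without L-OHP replicate 1 it was 1.05 (adjusted p = 0.102). The authors' deposited table gives Bcl2l1 a q-value of 0.0203 and a ratio of 1.69. Of the tools in the submitters' processing notes, which one gave that q-value is not stated.

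Bcl2, the founding member of the family on chromosome 1, measured 1.34, 1.32 and 1.6 FPKM with L-OHP+FUC and 1.41, 1.38 and 1.68 FPKM with L-OHP. The libraries of the groups interleaved, and the log2 fold change was -0.04 (95% interval -0.28 to 0.20, limma adjusted p = 0.794). Its sign turned to 0.04 with median ratio rescaling, 0.19 with quantile normalization and 0.21 with the correction for GC content and length, without a call in any of them, so no direction is given.

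A1, the remaining prosurvival protein, is encoded in the mouse by near-identical copies on chromosome 9, of which Bcl2a1b and Bcl2a1d are members and Bcl2a1a is a further expressed copy. The coding sequences, 519 bases each, were 98.8% identical between Bcl2a1b and Bcl2a1d, 97.9% between Bcl2a1b and Bcl2a1a and 98.7% between Bcl2a1d and Bcl2a1a. Of all stretches of 75 bases in the transcript, 43.5% in Bcl2a1b, 67.6% in Bcl2a1d and 53.8% in Bcl2a1a occurred without a mismatch in at least one of the other two copies, so reads can be shared and the values of single copies are uncertain. The first 90 coding bases, which hold 6 of the positions where the copies differ, are shown from GENCODE M21 transcripts (GRCm38) with those positions in capitals, because only reads over such positions tell the copies apart. They lie in 1 exon each, at chr9:89199360-89199449 (plus strand) for Bcl2a1b, chr9:88731630-88731719 (minus strand) for Bcl2a1d and chr9:88957051-88957140 (plus strand) for Bcl2a1a.
Bcl2a1b: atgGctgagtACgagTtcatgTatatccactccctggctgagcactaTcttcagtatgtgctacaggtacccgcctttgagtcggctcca
Bcl2a1d: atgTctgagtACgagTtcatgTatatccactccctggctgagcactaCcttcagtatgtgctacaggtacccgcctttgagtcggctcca
Bcl2a1a: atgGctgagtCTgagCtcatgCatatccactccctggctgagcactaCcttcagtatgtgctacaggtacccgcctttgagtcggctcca

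Bcl2a1b stood at 230, 209 and 215 FPKM with L-OHP+FUC and at 213, 214 and 136 FPKM with L-OHP. Bcl2a1d stood at 93.5, 82.3 and 89.0 FPKM with L-OHP+FUC and at 101, 103 and 49.5 FPKM with L-OHP. In both, L-OHP replicate 3 was the single low library, and the rest of the L-OHP group lay within or above the L-OHP+FUC range. Neither passed in limma (log2 fold changes 0.25 for Bcl2a1b, 95% interval -0.19 to 0.69, adjusted p = 0.351, and 0.13 for Bcl2a1d, -0.52 to 0.79, adjusted p = 0.748). Without L-OHP replicate 3 these were 0.03 for Bcl2a1b (adjusted p = 0.843) and -0.21 for Bcl2a1d (adjusted p = 0.174). After the correction for GC content and length they were 0.53 (adjusted p = 0.0869) and 0.39 (adjusted p = 0.340). Bcl2a1a measured 73.0, 73.5 and 73.3 FPKM with L-OHP+FUC and 69.0, 69.2 and 36.5 FPKM with L-OHP, again with replicate 3 low (log2 fold change 0.39, adjusted p = 0.269, and 0.08 without that library, adjusted p = 0.501). Summed over Bcl2a1b and Bcl2a1d, which removes the uncertainty between those copies, the level was 324, 291 and 304 FPKM with L-OHP+FUC and 314, 317 and 185 FPKM with L-OHP (exact two-sided permutation p = 0.8, where 3 against 3 cannot go below 0.1). The log2 difference of the sum was 0.21, and -0.04 without L-OHP replicate 3. With median ratio rescaling it was 0.34 and with the correction for GC content and length 0.49, each at the lowest possible permutation p of 0.1. Quantile normalization gave 0.13, so the size depends on scaling. Bcl2a1b also shares 401 exon bases on its own strand with the annotated gene Gm29094, which averaged 5.83 FPKM.

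**Figure D2:**
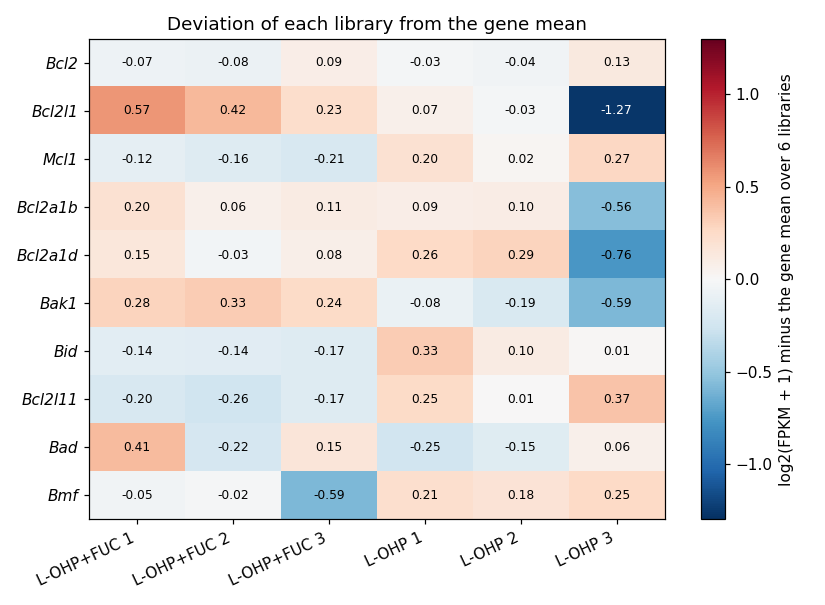
Deviation of each library from the gene mean over 6 libraries, in units of log2(FPKM + 1), for the 10 members (rows) in the L-OHP+FUC libraries (left columns) and the L-OHP libraries (right columns). L-OHP replicate 3 lay at -1.27 for Bcl2l1, -0.56 for Bcl2a1b, -0.76 for Bcl2a1d and -0.59 for Bak1, and it was the highest library for Mcl1, Bcl2l11, Bmf and Bcl2.

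L-OHP replicate 3 was the low library for each A1 copy, and the part of their promoters in this was not tested. The promoters of Bcl2a1b and Bcl2a1d are shown for comparison. They are 300-base windows from RefSeq (GRCm38.p6), from 250 bases before the start to 50 after it, at chr9:89199023-89199322 (plus strand) for Bcl2a1b and chr9:88731801-88732100 (minus strand) for Bcl2a1d. Over 250 aligned bases the windows were 98.8% identical, with 6 gap bases not counted. The alignment was local, so part of each window was not compared. Capitals mark a match to TGANTCA, a loose form of the AP-1 motif, searched on both strands, on which the pattern is the same. The match reads TGAATCA in Bcl2a1b and Bcl2a1d, and its central A is not the C or G of the usual AP-1 consensus. It begins at position -164 from the annotated start in Bcl2a1b and at -114 in Bcl2a1d, and 7.81% of all 32851 promoter windows hold the loose form.
Bcl2a1b: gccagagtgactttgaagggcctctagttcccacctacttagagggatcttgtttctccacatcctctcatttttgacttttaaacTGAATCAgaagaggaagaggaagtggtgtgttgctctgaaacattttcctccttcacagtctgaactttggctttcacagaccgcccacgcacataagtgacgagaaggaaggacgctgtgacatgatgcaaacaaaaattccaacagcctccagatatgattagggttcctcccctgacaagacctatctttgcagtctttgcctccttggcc
Bcl2a1d: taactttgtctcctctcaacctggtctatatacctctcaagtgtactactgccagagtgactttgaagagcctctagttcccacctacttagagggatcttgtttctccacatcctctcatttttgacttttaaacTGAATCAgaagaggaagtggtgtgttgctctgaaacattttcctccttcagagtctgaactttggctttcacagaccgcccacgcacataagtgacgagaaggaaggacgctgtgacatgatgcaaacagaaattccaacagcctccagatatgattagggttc

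Shorter stretches are given for the prosurvival genes Bcl2l1 and Mcl1 and for Bcl2l11. In these, letters searched for a factor long linked to the family were found. A loose form of the kappaB motif (GGG, any 2 bases, then TTTCC), searched on both strands, occurred in 1.63% of all promoter windows. Among the 10 members, one of the windows of Bcl2l1 (chr2:152830902-152830961, minus strand) and that of Mcl1 (chr3:95658667-95658726, plus strand) held it. In each case the match was on the strand opposite to the gene. The base after GGG was T in Bcl2l1 and C in Mcl1, where the usual kappaB consensus has a purine, so neither match fits that consensus. The forkhead motif GTAAACA occurred in 3.65% of windows and in one of those of Bcl2l11 (chr2:128125788-128125847, plus strand). The motif TGACNNNGC of antioxidant response elements occurred in 12.39% of windows and in one of those of Bcl2l1. All 10 members had at least one window, the motifs were chosen after the data had been seen, and a match is a run of letters and not a measured binding site. Capitals mark the match, and every stretch is from RefSeq (GRCm38.p6).
Bcl2l1: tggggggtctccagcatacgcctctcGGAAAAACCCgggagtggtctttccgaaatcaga
Mcl1: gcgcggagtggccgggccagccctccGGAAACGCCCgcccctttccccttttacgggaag
Bcl2l11: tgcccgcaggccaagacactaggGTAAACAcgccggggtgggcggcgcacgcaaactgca

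Bak1, on chromosome 17 (27019810 to 27029009), is the only effector among the members. It measured 66.9, 69.2 and 65.0 FPKM with L-OHP+FUC, against 51.6, 47.8 and 36.1 FPKM with L-OHP. All L-OHP+FUC libraries were above all L-OHP libraries, with 67.0 ± 2.12 FPKM in L-OHP+FUC and 45.2 ± 8.05 FPKM in L-OHP (SD, n = 3 each). Bak1 rose by a log2 fold change of 0.58 (SE 0.14, 95% interval 0.25 to 0.90, limma adjusted p = 0.0260), and the q-value in the authors' deposited table was 0.00142. The increase remained a call without L-OHP replicate 3 (0.43, adjusted p = 0.0332), but not when any one of the L-OHP+FUC libraries was left out (adjusted p = 0.0800 without replicate 1, 0.0890 without 2 and 0.0535 without 3, at log2 fold changes of 0.58, 0.55 and 0.60). With no low-value filter the call ended too (adjusted p = 0.0599). Fermt3, an integrin activator of blood cells, and Hspa8, a constitutive chaperone, were the genes nearest to Bak1 in pattern, by the root mean square difference of centred log2(FPKM + 1) over 6 libraries (0.06 for Fermt3 and 0.08 for Hspa8). Fermt3 rose by 0.54 on the log2 scale (adjusted p = 0.0352), whereas Hspa8 had a value of 0.50 and did not pass (adjusted p = 0.0622). As Fermt3 and Hspa8 were picked for matching Bak1 in these same libraries, their values add no separate result.

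The BH3-only members were low compared with Bak1 and the main prosurvival genes. Bcl2l11, on chromosome 2 (128126038 to 128162547), encodes BIM, which binds every prosurvival protein of the family. It measured 5.48, 5.25 and 5.65 FPKM with L-OHP+FUC, against 7.90, 6.52 and 8.63 FPKM with L-OHP. Every L-OHP+FUC library was below every L-OHP library, and the level fell by 0.42 on the log2 scale (SE 0.11, 95% interval -0.69 to -0.16, limma adjusted p = 0.0346). The call ended on leaving out L-OHP+FUC replicates 1, 2 or 3 (adjusted p = 0.0960, 0.113 and 0.0624) and L-OHP replicates 1 or 3 (0.107 and 0.0861), but not L-OHP replicate 2 (0.0157). It was also lost with median ratio rescaling (-0.31, adjusted p = 0.0762), quantile normalization (-0.30, adjusted p = 0.102), the correction for GC content and length (-0.26, adjusted p = 0.0966) and without a filter (adjusted p = 0.0685). The authors' deposited table gives a q-value of 0.125. Nearest in pattern were Ankrd10 and Vash2, each at a root mean square difference of 0.04. Their log2 fold changes were -0.48 for Ankrd10 (adjusted p = 0.0215) and -0.49 for Vash2 (adjusted p = 0.0295). Both were picked for matching Bcl2l11 in these same libraries, so their calls add no separate result. Both are low, where the added 1 FPKM shrinks fold changes. Ankrd10 lay at 1.48 to 1.58 FPKM with L-OHP+FUC and 2.12 to 2.86 FPKM with L-OHP. Vash2 lay at 0.478 to 0.58 FPKM with L-OHP+FUC and 0.866 to 1.45 FPKM with L-OHP.

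Bid, on chromosome 6, encodes the protein that caspase-8 cleaves to link death receptors to mitochondria. Its level was 14.9, 14.8 and 14.5 FPKM with L-OHP+FUC and 21, 17.8 and 16.6 FPKM with L-OHP. The groups did not overlap, and the difference did not pass in limma (log2 fold change -0.30, 95% interval -0.54 to -0.06, adjusted p = 0.0706). With median ratio rescaling it was -0.18 (adjusted p = 0.246). The authors' deposited q-value for Bid was 0.445. Bid shares 628 exon bases with Bcl2l13 on the opposite strand, and without knowledge of strand in the counting, reads there cannot be assigned.

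Bmf, on chromosome 2, encodes a BH3-only protein tethered to myosin motors. It measured 2.43, 2.49 and 1.35 FPKM with L-OHP+FUC and 3.11, 3.01 and 3.22 FPKM with L-OHP. All L-OHP+FUC libraries were lower, replicate 3 by the most, and the difference did not pass in limma (log2 fold change -0.44, 95% interval -0.82 to -0.05, adjusted p = 0.0907). With that library left out the value was -0.25 (adjusted p = 0.108), and with quantile normalization -0.22 (adjusted p = 0.388).

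Bad, on chromosome 19, encodes a BH3-only protein that survival kinases hold inactive by phosphorylation. It measured 9.19, 5.57 and 7.51 FPKM with L-OHP+FUC and 5.44, 5.88 and 7.00 FPKM with L-OHP. The groups overlapped (log2 fold change 0.23, 95% interval -0.18 to 0.64, limma adjusted p = 0.356). Leaving out L-OHP+FUC replicate 1 gave 0.08 (adjusted p = 0.759) and replicate 2 gave 0.40 (adjusted p = 0.128). Bad shares 524 exon bases with Gpr137 on the opposite strand, a gene that averaged 5.5 FPKM.

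**Figure D3:**
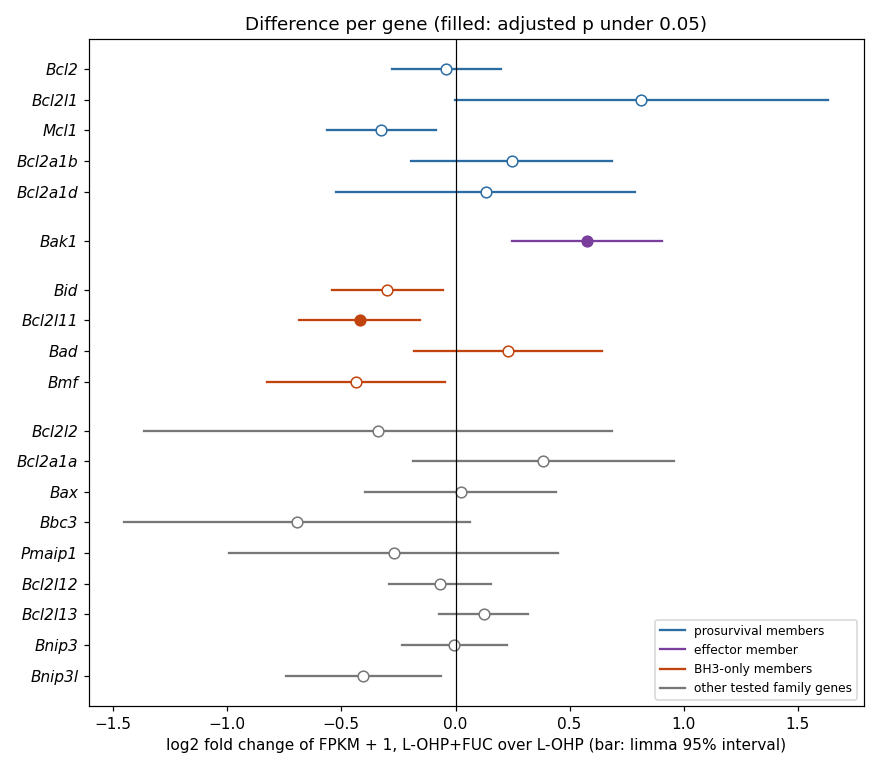
Log2 fold change of FPKM + 1, L-OHP+FUC over L-OHP, with limma's 95% interval, for the 10 members by role and for 9 other tested genes of the family, with filled points past an adjusted p of 0.05. Bak1 at 0.58 and Bcl2l11 at -0.42 are the filled points, and the widest interval among the members is that of Bcl2l1, from -0.004 to 1.63.

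Added together as a description with no test, the 5 prosurvival members reached 555, 514 and 518 FPKM with L-OHP+FUC and 589, 562 and 464 FPKM with L-OHP, and the groups overlapped. Mcl1 made up 37.5% to 39.2% of that sum in L-OHP+FUC libraries and 40.8% to 58.6% in L-OHP libraries, where replicate 3 gave the 58.6%. The share of Bcl2l1 was 3.31% to 3.95% with L-OHP+FUC and 1.17% to 2.58% with L-OHP. The 5 proapoptotic members summed to 98.9, 97.3 and 94.0 FPKM with L-OHP+FUC and 89.0, 80.9 and 71.6 FPKM with L-OHP. Bak1 alone supplied 67.6% to 71.1% of the proapoptotic sum with L-OHP+FUC and 50.5% to 59.0% with L-OHP. Without Bak1, the 4 BH3-only members summed to 32.0, 28.1 and 29.1 FPKM with L-OHP+FUC and 37.4, 33.2 and 35.5 FPKM with L-OHP. Of these 4, only Bcl2l11 passed the test, and Bad had a fold change of the opposite sign. The ratio of Bcl2l1 to Bcl2l11 was 4, 3.74 and 3.03 in L-OHP+FUC libraries and 1.93, 2.17 and 0.627 in L-OHP libraries. Both genes already separated the groups in opposite directions, so the separation of this ratio follows from theirs and adds no result.

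**Figure D4:**
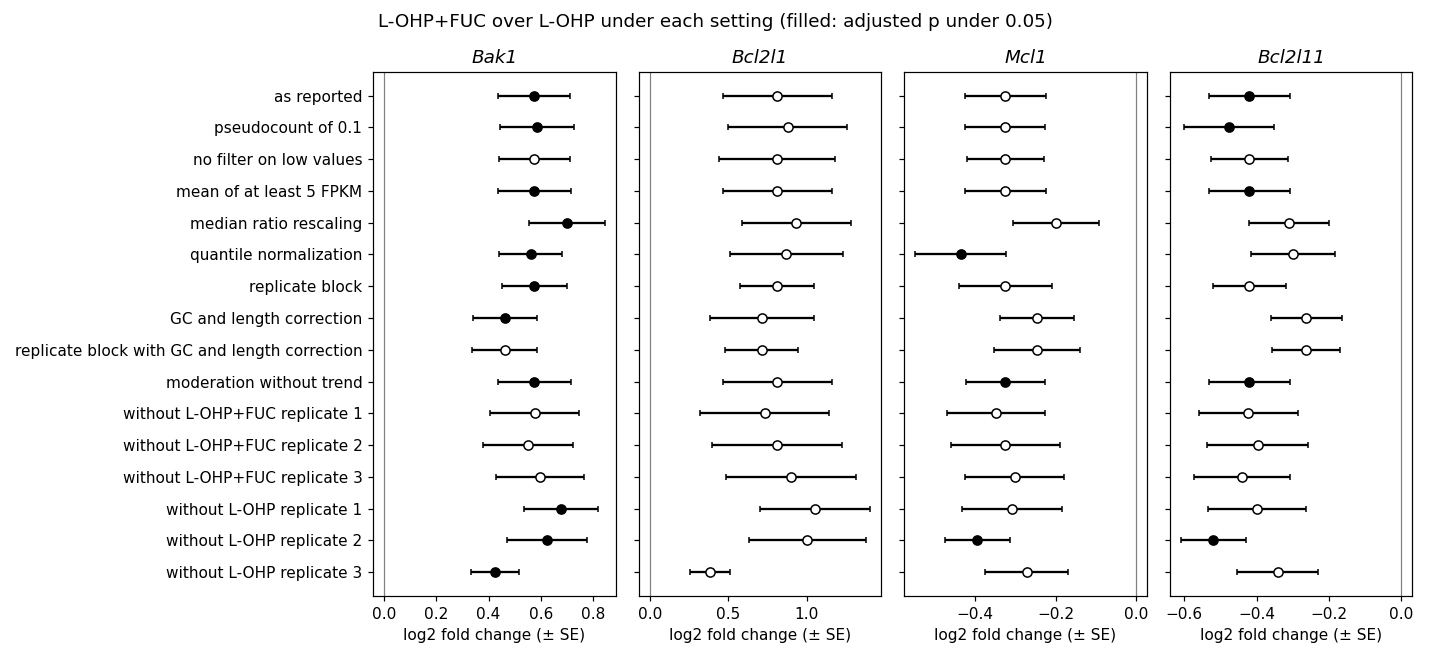
Log2 fold change with its SE for Bak1, Bcl2l1, Mcl1 and Bcl2l11 (columns) under each processing setting (rows), with filled points past an adjusted p of 0.05. The signs stay the same in every setting drawn, whereas the calls of Bak1 and Bcl2l11 come and go, and Bcl2l1 is closest to 0 without L-OHP replicate 3, at 0.38.

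Of 16 other genes of the family 9 were tested. None of the 9 rose or fell in limma on the deposited values, beside 27.0% of all tested genes called. Their groups did not overlap for 4 of the 9, near the 47.0% of all tested genes. At an unadjusted p under 0.05 there was 1, Bnip3l, a mitophagy receptor of the outer membrane (log2 fold change -0.41, adjusted p = 0.0778). Its value was -0.19 with the correction for GC content and length (adjusted p = 0.252), -0.26 without L-OHP replicate 3 (adjusted p = 0.132) and -0.52 without L-OHP replicate 2, where it passed as lower (adjusted p = 0.0343). Bax, the effector that acts beside BAK, measured 66.6, 54.8 and 59.0 FPKM with L-OHP+FUC and 57.0, 76.0 and 47.4 FPKM with L-OHP, at about the level of Bak1 in L-OHP+FUC cells (log2 fold change 0.02, 95% interval -0.40 to 0.44, adjusted p = 0.937). Whether Bak1 and Bax differed in their response was not tested. Bbc3, which encodes PUMA, stood at 9.55, 9.18 and 10.8 FPKM with L-OHP+FUC and at 12.7, 29.6 and 11.9 FPKM with L-OHP, where replicate 2 was high (log2 fold change -0.70, adjusted p = 0.146, and -0.29 without that library, adjusted p = 0.0774). Pmaip1, which encodes NOXA, stood at 2.87, 6.51 and 8.19 FPKM with L-OHP+FUC and at 6.15, 6.61 and 7.63 FPKM with L-OHP (adjusted p = 0.532). Bcl2l2 (adjusted p = 0.589), Bcl2l12 (0.613), Bcl2l13 (0.294) and Bnip3 (0.972) did not pass either. Under other settings calls appeared for Bcl2l13 as higher (adjusted p = 0.0452 with quantile normalization and 0.0277 with the correction for GC content and length) and for Bbc3 as lower (0.0485 with that correction). Bcl2l10, Hrk and Bcl2l14 were listed at 0 in every library, and Bcl2a1c, Bok, Bik and Bcl2l15 stayed under 0.5 FPKM.

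In 5 lists of apoptosis genes, which include the 9 other family genes above, 7 of 68 tested genes rose and 9 fell. Of all tested genes, 7.67% were called higher and 19.3% lower. The median log2 fold change was -0.03 over the lists and -0.10 over all tested genes. No list was tested as a group. Among 17 genes of the apoptosome, caspases and mitochondrial effectors, 2 rose and 2 fell (median -0.09), near the 27.0% of all tested genes called. Dffb, the nuclease that cuts DNA in apoptosis, fell (log2 fold change -0.44, limma adjusted p = 0.0277), and Dffa, its inhibitor and chaperone, rose (0.35, adjusted p = 0.0321). Dffb was low, at 0.307, 0.583 and 0.534 FPKM with L-OHP+FUC and 1.06, 0.975 and 0.95 FPKM with L-OHP. Its size depends on the pseudocount, as 0.1 gave -0.97 (adjusted p = 0.0397). The authors' deposited q-values were 0.0870 for Dffb and 0.0327 for Dffa. Leaving out L-OHP+FUC replicate 1 ended the calls of Dffa and Dffb (adjusted p = 0.104 and 0.0801), as did leaving out L-OHP+FUC replicate 2 (0.109 and 0.0598) or L-OHP replicate 1 (0.0908 and 0.0969), 2 (0.0538 and 0.0512) or 3 (0.0730 and 0.0637). Vdac3, a channel of the outer mitochondrial membrane, rose to 21.3 ± 0.399 FPKM with L-OHP+FUC, against 13.9 ± 1.18 FPKM with L-OHP (SD, n = 3 each; log2 fold change 0.59, limma adjusted p = 0.00834), and kept its call whichever library was left out. With the correction for GC content and length its value was 0.90 (adjusted p = 0.00448). Dffa (adjusted p = 0.0554) and Dffb (0.0620) lost theirs with no low-value filter, and Dffb with quantile normalization (0.142).

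Among the inhibitors of apoptosis proteins, 3 of 7 tested genes fell, beside 19.3% of all tested genes, and none passed as higher. The median was -0.35, beside -0.10 over all tested genes. Xiap, Birc2 and Birc3 had negative values and did not pass. Naip2 went the other way and did not pass in limma (log2 fold change 0.30, adjusted p = 0.0741), with a deposited q-value of 0.0394. It measured 43.1, 46.2 and 46.9 FPKM with L-OHP+FUC and 38.7, 32.1 and 39.6 FPKM with L-OHP, without overlap. Birc6, a giant ubiquitin ligase that restrains caspases, measured 3.08 ± 0.968 FPKM with L-OHP+FUC and 6.03 ± 0.451 FPKM with L-OHP (SD, n = 3 each; log2 fold change -0.81, limma adjusted p = 0.0175). After the correction for GC content and length its value was -0.37 (adjusted p = 0.0860), without a call. Naip5 (-0.65, adjusted p = 0.0205) and Naip6 (-0.92, adjusted p = 0.0148), which fell too, are close copies that can share reads, and they are known as bacterial sensors of the inflammasome more than as caspase inhibitors. Each of these 3 calls ended on leaving out L-OHP+FUC replicate 1 (adjusted p = 0.0570 for Birc6, 0.0722 for Naip5 and 0.0558 for Naip6), the second L-OHP+FUC library (0.0654, 0.0741 and 0.0572) or L-OHP replicate 1 (0.0523, 0.0655 and 0.0553), and that of Naip5 also without L-OHP replicate 3 (0.0520) and with no low-value filter (0.0514).

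In the death receptor pathway, 1 of 14 tested genes rose and 1 fell (median 0.07), beside 7.67% and 19.3% of all tested genes. Tnfrsf1a, the TNF receptor that can signal death, measured 88.9 ± 7.61 FPKM with L-OHP+FUC and 65.7 ± 6.39 FPKM with L-OHP (SD, n = 3 each; log2 fold change 0.43, limma adjusted p = 0.0314). Ripk1, the kinase that directs that signal to survival or death, measured 8.41 ± 0.480 FPKM with L-OHP+FUC and 11.8 ± 0.671 FPKM with L-OHP (-0.45, adjusted p = 0.0145), and its value was -0.20 without a call after the correction for GC content and length (adjusted p = 0.108). Both calls ended on leaving out L-OHP+FUC replicate 1 (adjusted p = 0.105 for Tnfrsf1a and 0.0550 for Ripk1), the second L-OHP+FUC library (0.110 and 0.0519) or L-OHP replicate 1 (0.0891 and 0.0583), and that of Tnfrsf1a also without L-OHP replicate 3 (0.0756) and with no low-value filter (0.0605).

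Of 21 tested regulators of the family's proteins, 4 rose and 3 fell (median 0.03), beside 7.67% and 19.3% of all tested genes. Ddit3 encodes CHOP, a stress transcription factor known to act on the Bcl2l11 gene. It fell to 35.0 ± 1.22 FPKM with L-OHP+FUC, against 70.5 ± 11.3 FPKM with L-OHP (SD, n = 3 each; log2 fold change -0.98, SE 0.13, limma adjusted p = 0.00631), and kept its call whichever library was left out. Akt1, a survival kinase that phosphorylates BAD, rose (0.44, adjusted p = 0.0166), as did the cochaperone Bag3 (0.45, adjusted p = 0.0103). Huwe1, a ubiquitin ligase of MCL1, fell (-0.50, adjusted p = 0.0158), but after the correction for GC content and length its value was -0.11 (adjusted p = 0.332). Leaving out L-OHP+FUC replicate 1, L-OHP+FUC replicate 2 or L-OHP replicate 1 ended the calls of Akt1 (adjusted p = 0.0584, 0.0633 and 0.0569) and Huwe1 (0.0582, 0.0655 and 0.0571), the correction for GC content and length ended that of Akt1 (0.0595), and leaving out L-OHP+FUC replicate 2 ended that of Bag3 (0.0516).

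**Figure D5:**
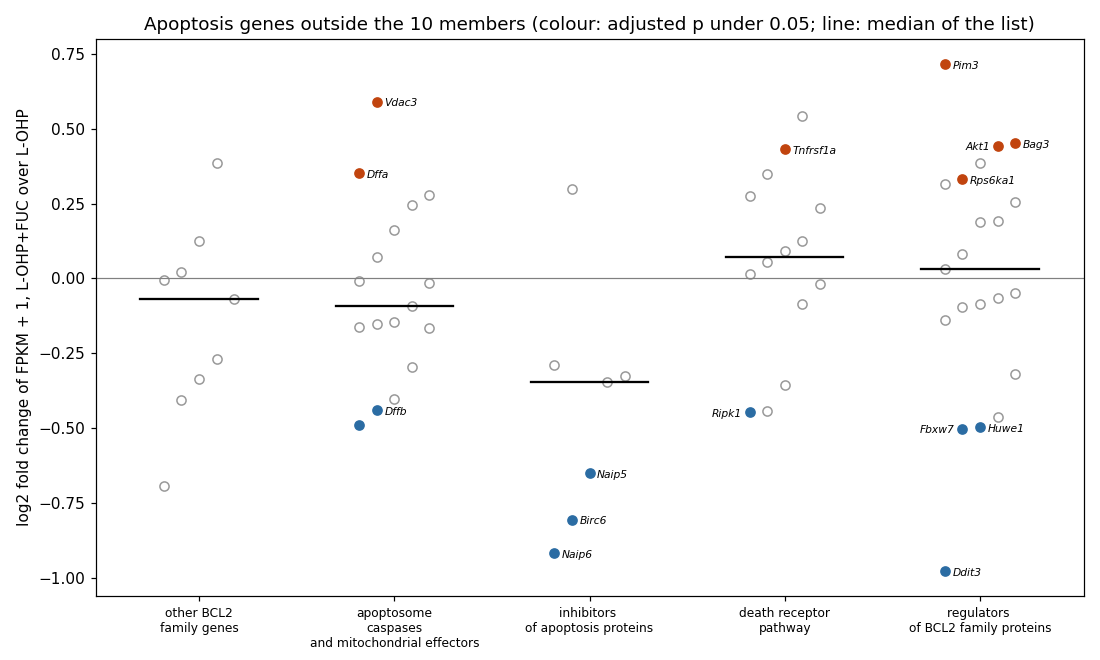
Log2 fold change of FPKM + 1, L-OHP+FUC over L-OHP (vertical axis), for the 68 tested genes of 5 lists (horizontal axis), with called genes coloured, all but 1 of them named, and a line at the median of each list. Ddit3 at -0.98 and Naip6 at -0.92 are the lowest points, and Pim3 at 0.72 is the highest.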

How the data were processed

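Ribosomal RNA was removed with probes before sequencing, per the labels' protocols. The submitters' processing notes name bcl2fastq 2.0, HISAT2, StringTie, DESeq2, limma and mm10 without roles, and the counting step, its strand use and its annotation release are not given here. Per the file headers, the authors deposited FPKM per gene and library, with 0.0001 in place of 0 (set back to 0 here), the ratio of mean FPKM, its log2, and a p-value and q-value per gene. Steps in the low values implied 15.8 to 18.7 M fragments per library, but with 34.0% to 39.3% of them whole (tolerance 0.03) counts could not be recovered, and no counting interval is given.

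On log2(FPKM + 1), limma 3.58.1 under R 4.3.3 fitted the group alone, with trended moderation. Tests were two-sided, and p-values were adjusted by Benjamini-Hochberg over the 12084 genes at 0.5 FPKM or more in at least 3 libraries. Fold changes on this scale understate those of low genes. Where a symbol named several rows, the highest was used. The code was tested on simulated data. Coordinates, overlaps, GC content and length came from GENCODE M21, which matched 99.5% of gene IDs, and sequences were compared with Biopython 1.88. No 2 libraries shared a value at 0.5 FPKM or above.

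The members and gene lists were chosen with earlier results of these data known. Named were all members, every tested gene of the family, up to 4 called genes with the smallest p per list, and the 2 nearest patterns per called member, leaving out members and predicted names; 1 gene so chosen is not reported here. Alternatives covered the pseudocount, filters, scaling, GC content and length (loess, span 0.3, 4 iterations), a replicate block, moderation, thresholds and leaving out each library.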

Additional observations from a re-analysis of the deposited data

How the results depend on the processing

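Over up to 17 alternatives per gene, the signs of Bak1, Bcl2l1, Mcl1, Bcl2l11, Bid, Bmf, Bad and Bcl2a1b held in each setting that tested them, while the count of called members did not. The count of members called higher (1) became 0 without a filter, with the replicate block together with the GC and length correction, and at a threshold of 0.01, and was 0 to 1 with one library left out. The count called lower (1) became 0 without a filter, with median ratio rescaling, the GC and length correction, the replicate block alone or with that correction, and at 0.01, was 2 without the moderation trend, 4 at a threshold of 0.1, and 0 to 2 with one library left out. With quantile normalization the member called lower was Mcl1. Deviations of libraries with the same replicate number correlated at -0.04, -0.07 and 0.08. These values show no pairing by number but cannot establish that the samples were unpaired. With the replicate block, limma gave Bcl2l11 an adjusted p of 0.0501 and Bak1 0.0410, and the calls of Dffa (0.0638) and Dffb (0.0604) ended. The SE of Bcl2l1 went from 0.345 to 0.236 with the block, without a call (adjusted p = 0.0694).

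Over all genes, 927 higher and 2335 lower became 1581 and 1680 with median ratio rescaling, 1565 and 1359 with quantile normalization, 1379 and 1448 with the GC and length correction, 754 and 966 at a mean of at least 5 FPKM, 561 and 1520 without a filter, 554 and 1762 with the block, 600 and 763 with block and correction, and 165 and 472 at 0.01, with 1436 higher at 0.1. With one library left out they were 261 to 1102 higher and 848 to 2107 lower. The median of all tested genes was -0.10 as deposited, -0.01 with median ratio rescaling, 0.03 with quantile normalization and 0.01 with the GC and length correction, so a member's sign within 0.1 of 0 depends on scaling. Pathway calls, 7 higher and 9 lower, were 13 higher with median ratio rescaling, 12 with quantile normalization, 3 without a filter, 2 and 3 with block and correction, 1 and 1 at 0.01 and 12 and 14 at 0.1, and 1 to 11 in each direction with one library left out.

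Signs that turned belonged to uncalled genes. Bcl2 (-0.04) became 0.035 with median ratio rescaling, 0.19 with quantile normalization and 0.21 with the correction, with or without the block, and -0.093 to 0.014 with one library left out. Bnip3 (-0.01) became 0.10, 0.13 and 0.21 under the same 3 settings, and Bcl2l12 (-0.07) 0.019 and 0.146 under the first pair. Bax (0.02) became -0.004 with quantile normalization and -0.048 with the correction, with or without the block. With one library left out, Bax gave -0.13 to 0.20, Bnip3 -0.057 to 0.049, Bcl2l2 -0.59 to 0.17, Pmaip1 -0.53 to 0.10, Bcl2a1d -0.21 to 0.31, and the sum of Bcl2a1b and Bcl2a1d -0.044 to 0.342. The cause of these changes was not tested.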
